A study of Mus musculus and synthetic construct with 3 samples.

Results

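Prostacyclin synthase (Ptgis) and 7 further genes of vasodilator signalling (Ptgs1, Ptgir, Nos3, Gucy1a1, Gucy1b1, Prkg1 and Pde5a) were described in aneurysmal and normal mouse aorta. The 8 genes were picked by symbol from the 32285 genes of the deposited matrix, with earlier results of these data known, so their levels in AAA and control mice and in smooth muscle hexagons are given as a description. Seq-Scope, a sequencing-based method that captures poly(A) RNA on an array of spatially barcoded oligonucleotides, had been applied to frozen sections of the suprarenal abdominal aorta, each 10 µm thick, of male Apoe-/- mice on a normal diet. AAA mice were those that developed an abdominal aortic aneurysm during 4 weeks of angiotensin II from subcutaneous minipumps, and control mice received saline for the same time. Both conditions thus share the Apoe deletion and the pump. The labels put the animals at 16 weeks of age when the pumps were implanted, while the methods of the study give a younger age. The 10 AAA sections came from 3 AAA mice and the 10 control sections from 3 control mice, with 1 AAA and 1 control aorta embedded together in each block, and the mouse was taken as the replicate.

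Prostacyclin is a lipid mediator that relaxes vascular smooth muscle and restrains platelets. Cyclooxygenases (Ptgs1 encodes the constitutive form) convert arachidonic acid to prostaglandin H, prostacyclin synthase isomerises this to prostacyclin, and the receptor encoded by Ptgir raises cyclic AMP in the target cell. In the parallel nitric oxide branch, the endothelial synthase encoded by Nos3 releases nitric oxide, which activates soluble guanylate cyclase, a heterodimer of the Gucy1a1 and Gucy1b1 products. The cyclic GMP formed activates the kinase encoded by Prkg1 in smooth muscle and is degraded by phosphodiesterase 5 (Pde5a).

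Depth differed between the conditions. Exonic unique molecular identifiers (UMIs, the count of captured molecules) over all barcodes of the sections numbered 973127, 457662 and 670552 in AAA mice, and 169922, 140819 and 192762 in control mice. All markers of the smooth muscle, endothelial, macrophage and collagen lists were detected in the control mice. The AAA mice carried fewer contractile and more macrophage UMIs: the summed level of the 9 contractile genes spanned 10248 to 12320 CPM (UMIs scaled to a total of 1000000 per mouse) in AAA mice and 14806 to 20035 CPM in control mice, and that of the 14 macrophage genes 6543 to 8727 CPM in AAA mice and 3914 to 4565 CPM in control mice. Barcodes between the sections also gave UMIs, 456923 in all, and the part of such UMIs in the levels of the sections was not tested.

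Ptgis was by far the most counted of the 8 genes, and it was lower in the AAA mice. It lies on chromosome 2, minus strand (GRCm38, 167191805 to 167240604), and gave 1234 exonic UMIs in AAA mice and 420 in control mice. Its level was 604, 557 and 583 CPM in AAA mice 1, 2 and 3, against 924, 653 and 887 CPM in control mice 1, 2 and 3. The 3 AAA mice lay close together and below all 3 control mice, of which control mouse 2 was nearest to them. The means were 582 ± 23.6 CPM in AAA mice and 821 ± 147 CPM in control mice (SD, n = 3 each). The log2 fold change was -0.51 (standard error 0.12), where the median of all 6454 genes tested was -0.01. Within the embedded blocks the log2 ratio of AAA to control was -0.61 in block 1, -0.23 in block 2 and -0.61 in block 3. In sums over all cells of a section, fewer cells that express a gene and less RNA per cell cannot be told apart, and the share of contractile UMIs fell together with Ptgis. The part of the contractile UMIs in the Ptgis difference was not tested.

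**Figure D1:**
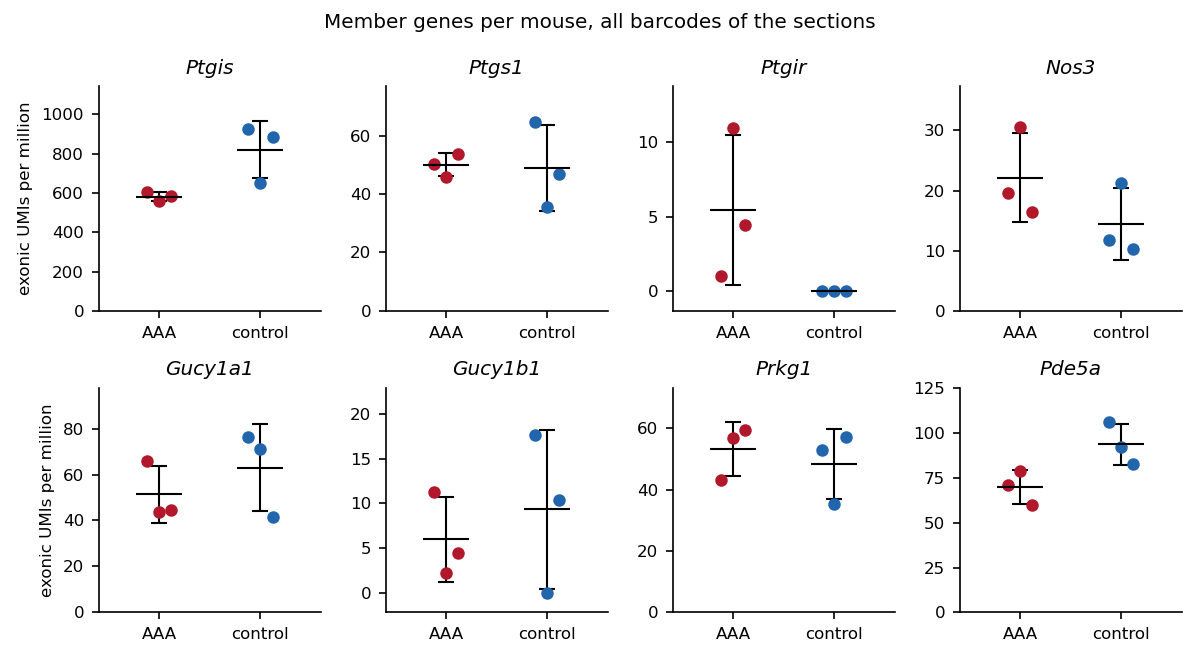
Exonic level (CPM) of the 8 genes in each of the 3 AAA mice (red) and 3 control mice (blue), with the mean and SD in black. Ptgis and Pde5a lie lower in all 3 AAA mice than in any control mouse, Ptgir was counted in AAA mice alone, and the other genes overlap.

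Single sections showed the spread behind these means. Over the 10 AAA sections Ptgis ran from 483 CPM over a median of 566 CPM to 667 CPM, and over the 10 control sections from 575 CPM over a median of 687 CPM to 1340 CPM. The sections of the conditions overlapped, and the highest control values stood in section 1 of mouse 3 (1340 CPM) and sections 2 and 3 of mouse 1 (1025 and 1093 CPM). The other 3 sections of control mouse 3 had 615.7 to 639 CPM, so that mouse's high level rested on 1 section; without it the mouse had 628 CPM, still above each AAA mouse. That section touches section 1 of AAA mouse 3. The edge between them was left out of the fit that placed the sections, and its part in this level was not tested.

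Upstream and downstream of Ptgis in the prostacyclin branch, few UMIs were counted. Ptgs1 (chromosome 2, plus strand, 36230426 to 36252272) had 49, 21 and 36 UMIs in AAA mice and 11, 5 and 9 UMIs in control mice. This corresponds to 50.4, 45.9 and 53.7 CPM in AAA mice and 64.7, 35.5 and 46.7 CPM in control mice, with the AAA values inside the control range. Its log2 fold change was 0.02 (standard error 0.33), so a change of either sign of the size seen for Ptgis lay within 2 standard errors. The receptor gene Ptgir (chromosome 7, plus strand, 16906490 to 16910905) had 1, 5 and 3 UMIs in AAA mice and 0 in each control mouse. Over the pooled control mice a count of 0 allows up to 5.96 CPM (3 UMIs), above the 4.28 CPM of the pooled AAA mice, so no difference was detectable at this depth. Counting intervals and such limits cover counting error only.

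Of the nitric oxide branch, Pde5a had lower values in each AAA mouse. Pde5a (chromosome 3, plus strand, 122728947 to 122859374) had 69, 36 and 40 exonic UMIs in AAA mice and 18, 13 and 16 in control mice. This gave 70.9, 78.7 and 59.7 CPM in AAA mice, against 106, 92.3 and 83.0 CPM in control mice, without overlap. The log2 fold change was -0.44 ± 0.26 (SE). The difference did not stand in counts over whole genes, introns included, where Pde5a averaged 105 ± 5.68 CPM in AAA mice and 109 ± 19.1 CPM in control mice (SD, n = 3 each), the mice overlapped and the log2 fold change was -0.04 (standard error 0.16).

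The guanylate cyclase subunits were counted unequally. Gucy1a1 (chromosome 3, minus strand, 82092427 to 82145789) had 65.8, 43.7 and 44.7 CPM in AAA mice and 76.5, 71.0 and 41.5 CPM in control mice. The lowest value of all was that of control mouse 3, and the log2 fold change was -0.20 (standard error 0.32). Its neighbour on the same strand Gucy1b1 (82032006 to 82074689) had 11, 1 and 3 exonic UMIs in AAA mice and 3, 0 and 2 in control mice, too few to compare. In whole-gene counts the subunits were closer: Gucy1a1 had 209 UMIs in AAA mice and 62 in control mice, and Gucy1b1 144 in AAA mice and 40 in control mice. On that scale the log2 fold change of Gucy1b1 was -0.13 ± 0.28 (SE), with overlapping mice.

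Prkg1, the kinase that cyclic GMP activates, was found mainly outside its annotated exons. Its gene on chromosome 19, minus strand, spans 30564489 to 31765033, 1201 kb, of which 10.9 kb is exonic in GENCODE M21. Exonic UMIs numbered 42, 26 and 40 in AAA mice and 9, 5 and 11 in control mice. Whole-gene UMIs numbered 1837, 780 and 1222 in AAA mice and 325, 326 and 313 in control mice, 36.1 times the exonic total. Neither count separated the conditions. The exonic level was 53.2 ± 8.82 CPM in AAA mice and 48.5 ± 11.4 CPM in control mice, and the whole-gene level was 793 ± 41.5 CPM in AAA mice and 801 ± 71.9 CPM in control mice (SD, n = 3 each). The whole-gene log2 fold change was 0.004 (standard error 0.10), the narrowest error of any member on either scale. For comparison, whole-gene UMIs were 1.11 times the exonic UMIs for Ptgis, 1.37 times for Ptgs1, 1.87 times for Gucy1a1, 3.27 times for Pde5a and 9.2 times for Gucy1b1.

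Nos3 (chromosome 5, plus strand, 24364810 to 24384474) was counted 19, 14 and 11 times in AAA mice and 2, 3 and 2 times in control mice. The levels were 19.5, 30.6 and 16.4 CPM in AAA mice and 11.8, 21.3 and 10.4 CPM in control mice, and they overlapped. Pooled over mice, the 95% exact binomial interval was 15.2 to 28.1 CPM in AAA mice and 5.59 to 28.6 CPM in control mice. Over whole genes Nos3 had 14.6, 16.4 and 13.6 CPM in AAA mice against 5.10, 10.5 and 11.5 CPM in control mice, without overlap, on 70 UMIs in AAA mice and 11 in control mice. Of all genes tested on that scale, 7.36% were likewise higher without overlap and 6.83% lower. The summed level of the 14 endothelial markers was 950 to 1129 CPM in AAA mice and 947 to 980 CPM in control mice, and none of the 12 of them that could be tested differed by edgeR's quasi-likelihood test.

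In sum over the 8 members, 5 (Ptgis, Ptgs1, Gucy1a1, Prkg1 and Pde5a) passed the low-count filter, and Ptgis alone was past an adjusted p of 0.05, where 1.18% of all tested genes were called lower and 1.08% higher in AAA mice. Of those 5, Ptgis and Pde5a were lower without overlap, which held for 8.49% of all tested genes, while 8.91% were higher without overlap. Both were chosen from this contrast, and nothing further is read from the counts. Per kb of exon, Ptgis had a level of 247 CPM and the other members at most 12.95 CPM, although capture by the poly(A) tail does not scale with length.

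The Ptgis difference stood in the deeper hexagons. Barcodes were binned into hexagons with a side of 12 µm, and the number of genes in each hexagon was used as its depth. In hexagons with under 25 genes Ptgis was 537 ± 13.2 CPM in AAA mice and 555 ± 34.2 CPM in control mice (SD, n = 3 each), and the mice overlapped. From 25 to 74 genes it was 598 ± 29.1 CPM in AAA mice and 1001 ± 224 CPM in control mice. At 75 or more genes, the minimum the study used, it was 614, 571 and 665 CPM in AAA mice, against 1313, 1044 and 3186 CPM in control mice. The control mice thus rose with depth while the AAA mice changed little, and control mouse 3, with 30 Ptgis UMIs in 90 hexagons, stood far above the others. Hexagons with 75 or more genes numbered 2650, 898 and 876 in AAA mice and 271, 124 and 90 in control mice. They held 14.4 to 34.5% of the UMIs of AAA mice and 4.9 to 19.7% of those of control mice. The study reported far more hexagons in all at the same side and gene minimum. For Ptgis, barcodes between the sections had 468 CPM, with an exact binomial interval of 408 to 535. This is close to the level of the shallow hexagons, which held 42.6 to 59.5% of the UMIs of the control mice and 23.5 to 38.1% of those of the AAA mice. Acta2, the smooth muscle actin, was lower in AAA mice at every depth, with 5122 ± 145 CPM in AAA mice and 6892 ± 586 CPM in control mice in the shallowest hexagons. These depth classes were chosen after the data were seen.

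**Figure D2:**
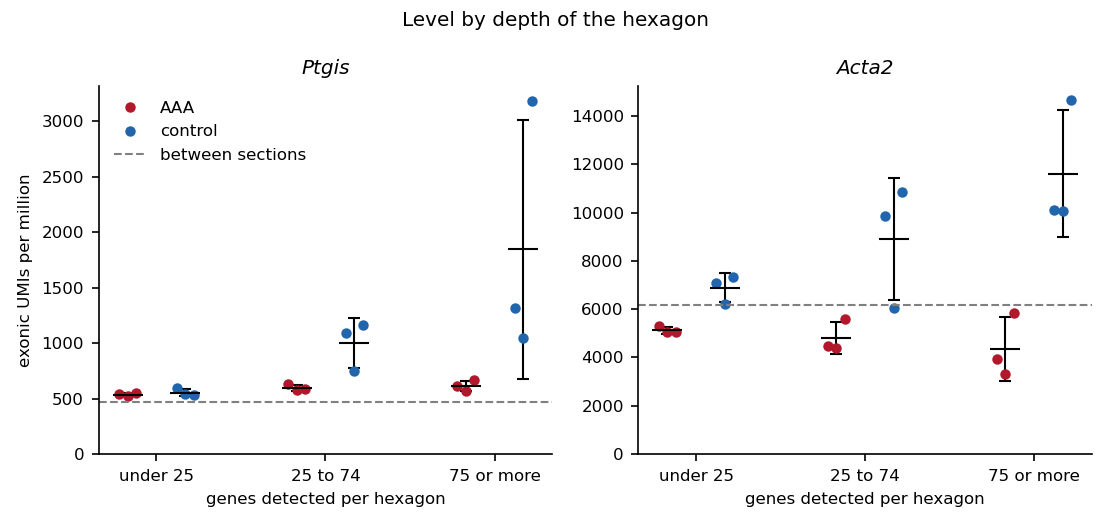
Exonic level (CPM) of Ptgis (left) and Acta2 (right) against the number of genes in the hexagon, for 3 AAA mice (red) and 3 control mice (blue), with the mean and SD in black and the level between sections as a dashed line. Ptgis overlaps between the conditions under 25 genes and lies lower in all 3 AAA mice at 75 or more genes.

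Over the hexagons with 75 or more genes the fitted log2 fold change of Ptgis was -1.42 (standard error 0.26), and leaving out control mouse 3 gave -0.92. Among the 1163 genes tested there, 4.21% were called lower and 2.58% higher, 79 in all, against 46 without control mouse 1 and 120 without control mouse 2. Acta2 stood at -1.41 ± 0.21 (SE) in the same fit, close to Ptgis. No other member passed the filter in these hexagons. Gucy1a1 had 28 UMIs there in AAA mice and 4 in control mice, Pde5a 38 in AAA mice and 8 in control mice, and Prkg1 21 in AAA mice and 0 in control mice.

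Ptgis was higher in hexagons rich in contractile UMIs in all mice but 1. Smooth muscle hexagons were those with 75 or more genes and 3 or more UMIs of the contractile list (Acta2, Tagln, Myh11, Myl9, Cnn1, Tpm2, Smtn, Lmod1 and Des), which holds no member. They made up 12.3, 8.02 and 20.2% of such hexagons in AAA mice and 46.5, 41.1 and 64.4% in control mice. In AAA mice Ptgis had 962, 413 and 1474 CPM in smooth muscle hexagons, against 559, 586 and 448 CPM in the other hexagons of the same mice. In control mice it had 2053, 1718 and 3753 CPM in smooth muscle hexagons, against 669.8, 527 and 1986 CPM in the others. Those values of the other hexagons rested on only 12, 4 and 6 Ptgis UMIs in control mice 1, 2 and 3. Ptgis was thus higher in smooth muscle hexagons in 5 of 6 mice, AAA mouse 2 with 4 UMIs in 72 smooth muscle hexagons being the exception. The fitted log2 ratio, with the mouse as a block, was 1.10 (standard error 0.22). Of 215 genes tested, 11.6% were called higher in smooth muscle hexagons and 4.65% lower. Ptgis was among the higher ones, which is given as a description. Acta2, which helped to define the hexagons, had a ratio of 2.20.

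The share of hexagons with a Ptgis UMI was, pooled over the mice of a condition, alike at 0 and 1 contractile UMIs and higher from 2 upward, but not in every mouse. In AAA mice it was 5.61% of 1800 hexagons with 0 contractile UMIs, 5.515% of 1378 with 1, 7.44% of 672 with 2, 9.20% of 435 with 3 to 4, and 17.3% of 139 with 5 or more. In control mice it was 4.88% of 82 hexagons with 0, 4.94% of 81 with 1, 11.5% of 87 with 2, 20.1% of 134 with 3 to 4, and 23.8% of 101 with 5 or more. By mouse, the share at 3 to 4 contractile UMIs was 8.47, 3.08 and 13.4% in AAA mice 1, 2 and 3, against 19.7, 14.7 and 26.47% in control mice 1, 2 and 3. At 5 or more it was 18.0, 28.6 and 13.95% in AAA mice, against 20.0, 23.5 and 33.3% in control mice. The mice did not overlap at 3 to 4, where the highest AAA mouse lay close to the lowest control mouse, and they overlapped at 5 or more. AAA mouse 2 had a lower share at 3 to 4 (3.08%) than at 0 (6.23%), and control mouse 3 had 11.1% at 0, 28.6% at 1 and 0.0% at 2, so the pooled order does not hold within each mouse. Hexagons of 1 mouse are not replicates, and the difference between the conditions was not tested on this scale. Median depth rose from 104 UMIs at 0 contractile UMIs to 120 at 5 or more in AAA mice, and from 98.5 to 121 in control mice. In the hexagons with 3 to 4 it was 114 UMIs in AAA mice and 103 in control mice. As a background, hexagons with 3 or more adipocyte UMIs and under 3 contractile UMIs had a Ptgis UMI in 2.12% of 378 in AAA mice (interval 0.918 to 4.13%) and 3.77% of 53 in control mice, at median depths of 131 and 134 UMIs. Collagen-rich hexagons of AAA mice had one in 6.28% of 1227 and macrophage-rich hexagons in 5.25% of 400, between the adipocyte-rich and the smooth muscle hexagons (11.1%). Ptgis is also known from fibroblasts, and these hexagons can hold several cells.

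**Figure D3:**
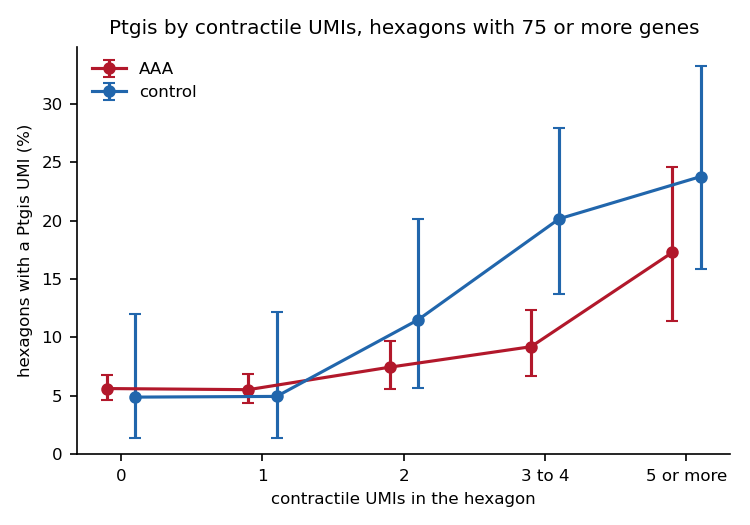
Percentage of hexagons with at least 1 Ptgis UMI against the number of contractile UMIs in the same hexagon, for hexagons with 75 or more genes of AAA mice (red) and control mice (blue), with 95% exact binomial intervals over the pooled hexagons, which cover counting error only and not the spread between mice. The share stays near 5% at 0 and 1 contractile UMIs in both conditions and lies at 9.20% in AAA and 20.1% in control hexagons with 3 to 4.

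In space, the control section with the most UMIs of block 1 had a ring of hexagons with 3 or more contractile UMIs. Of 617 hexagons with 25 or more genes there, 42 had a Ptgis UMI, 16 of them among the hexagons with 3 or more contractile UMIs (14.3% of these) and 26 among the rest (5.15% of these). The AAA section with the most UMIs of the same block had 4793 such hexagons and a ring broken into stretches. There 173 hexagons had a Ptgis UMI, 19 of them among the hexagons with 3 or more contractile UMIs (7.31% of these) and 154 among the rest (3.40% of these). In both sections most hexagons with a Ptgis UMI thus had fewer than 3 contractile UMIs, although hexagons with 3 or more held one at a higher rate. These hexagons and the rest were not matched for depth.

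**Figure D4:**
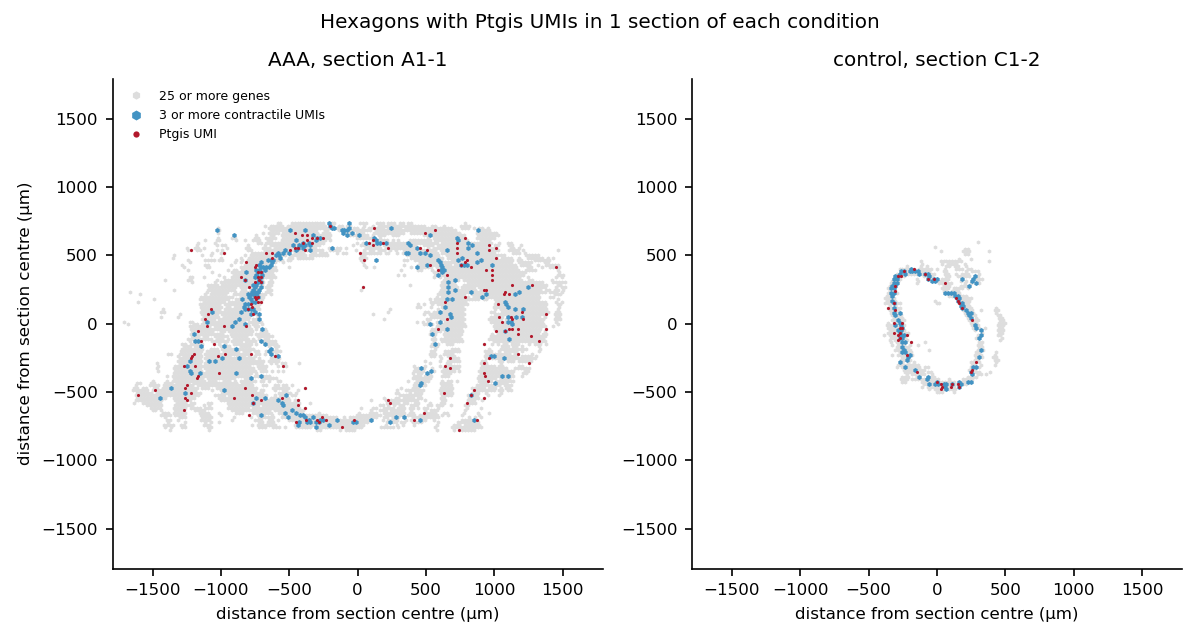
Hexagons with 25 or more genes (grey), those with 3 or more contractile UMIs (blue) and those with a Ptgis UMI (red) in an AAA section (left) and a control section (right) of block 1, in µm from the section centre on equal scales. Of the hexagons with a Ptgis UMI, 19 of 173 in the AAA section and 16 of 42 in the control section have 3 or more contractile UMIs.

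Within smooth muscle hexagons, Ptgis was again lower in every AAA mouse. The values given above, 962, 413 and 1474 CPM in AAA mice and 2053, 1718 and 3753 CPM in control mice, did not overlap and rested on 44, 4 and 30 UMIs in AAA mice and 32, 10 and 24 UMIs in control mice. The fitted log2 fold change was -1.28 (standard error 0.35), where 5.30% of the 151 genes tested were called lower and 0.662% higher. The study also lists Ptgis as a marker of its smooth muscle cluster, and as lower in that cluster in AAA, on another scale. Because Ptgis was picked with earlier results of these data known, its place in the present fit is a description and no test. It was past the threshold here, but not with DESeq2 or without AAA mouse 1 (log2 fold change -1.19). Nor was it past the threshold without control mouse 1 (-1.44) or without control mouse 3 (-1.01). For Acta2, which helped to define these hexagons, the log2 fold change in them was -0.39 ± 0.14 (SE), with an adjusted p of 0.128 (edgeR). Of these hexagons, 139 of 574 in AAA mice and 101 of 235 in control mice had 5 or more contractile UMIs. Also called lower beside Ptgis were Hspb1 (-2.32), Sost (-1.87), Actn1 (-1.44), Rgs5 (-1.44), Flna (-1.21), Myl6 (-0.86) and Myl9 (-0.58), the last from the contractile list. Mgp, which encodes matrix Gla protein, was higher (0.63, adjusted p = 0.0481, edgeR), while Ctsb (1.16) and Col1a1 (1.06) did not pass. The hexagons can hold several cells, and the part of other cells in the Ptgis difference was not tested. The share of all genes without overlap here was not counted. The other 7 members were at 0 to 3 UMIs in each mouse and were not compared.

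The choice of denominator mattered for Ptgis. Over all barcodes there were 57.2, 54.4 and 47.3 Ptgis UMIs per 1000 contractile UMIs in AAA mice, and 47.6, 44.1 and 44.3 in control mice. On this scale AAA mice were not lower: their mean was 53.0 ± 5.10 against 45.3 ± 1.97 in control mice (SD, n = 3 each). In hexagons with 75 or more genes it was 66.1 ± 12.5 in AAA mice and 66.8 ± 25.8 in control mice. In smooth muscle hexagons it was 32.5, 15.6 and 42.6 in AAA mice and 52.8, 44.1 and 87.3 in control mice, lower without overlap. Since Ptgis UMIs outside smooth muscle hexagons enter the first 2 values, the ratio there does not measure smooth muscle alone. In smooth muscle hexagons the ratio divides by the same contractile UMIs that chose the hexagons. Of the contractile UMIs in hexagons with 75 or more genes, these held 1356 of 3003, 257 of 817 and 705 of 1220 in AAA mice. In control mice they held 606 of 743, 227 of 306 and 275 of 314. The part of this choice in the ratio was not tested. This scale was chosen after the data were seen.

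One contrast had no part in the choice of the genes. The study asked where macrophages with Gpnmb, a transmembrane glycoprotein, lie relative to medial smooth muscle, and smooth muscle hexagons of AAA mice were split by whether another hexagon within 45 µm held a Gpnmb UMI. Near Gpnmb, Ptgis had 702, 315 and 1365 CPM, against 1140, 596 and 1570 CPM away from it, in AAA mice 1, 2 and 3. The near value was lower in 3 of 3 mice, on 13, 2 and 13 UMIs near and 31, 2 and 17 UMIs away. The log2 ratio of -0.55 (standard error 0.51) did not pass the test over 117 genes (adjusted p = 0.938, edgeR's quasi-likelihood test), of which 0.855% were called higher and 0.0% lower. The ratio lay within 2 standard errors of 0, and the other members were below the filter. Control mice were not part of this fit. In control mice 1, 2 and 3 Ptgis had 1078.5, 6329 and 5975 CPM near Gpnmb, on 4, 2 and 11 UMIs. Away from it the same mice had 2357.5, 1453 and 2855 CPM, on 28, 8 and 13 UMIs. The near value was thus lower in control mouse 1 and higher in control mice 2 and 3.

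Over the 20 sections, the genes whose level ran most like that of Ptgis were smooth muscle genes in part. Among 2500 further genes with 200 or more UMIs, Pearson's r of log2(CPM + 10) was highest for Myl9 (0.78), the regulatory myosin light chain of smooth muscle. It was followed by Hspb1 (0.75), a small heat shock protein that binds actin, Myh11 (0.73), the smooth muscle myosin heavy chain, Sost (0.715), which encodes sclerostin, and St5 (0.71). Myl9 and Myh11 belong to the contractile list, while Acta2 (r = 0.64) ranked 22nd. Sections of both conditions entered r together, so the difference between AAA and control mice is part of these values. The sections also share mice, array and depth, so the values are a description.

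The remaining genes of the pathways gave few calls. On simulated counts the fit over section barcodes recovered 56.12% of changes of log2 size 1, so a gene without a call is not shown to be unchanged. Of 21 further genes of prostanoid synthesis and receptors, 7 could be tested and none passed an adjusted p of 0.05. Their median log2 fold change was -0.08. The most counted were Ptges3, a prostaglandin E synthase and chaperone partner, with 273 ± 38.6 CPM in AAA mice and 282 ± 23.4 CPM in control mice, and Akr1b3, an aldose reductase, with 196 ± 27.0 CPM in AAA mice and 194 ± 10.8 CPM in control mice (SD, n = 3 each). Of 27 further genes of nitric oxide and cyclic GMP signalling, 15 could be tested, none passed, and the median was -0.10. Cav1, which encodes the caveolar protein that binds the endothelial synthase, had a log2 fold change of -0.40 (adjusted p = 0.23), and Hsp90aa1, a chaperone of that enzyme, -0.54 (adjusted p = 0.0971, both edgeR).

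Of the cyclic AMP pathway, through which the prostacyclin receptor acts, 15 of 26 genes could be tested. Their median log2 fold change was -0.28, against -0.01 over all 6454 genes tested. One passed: Adcy5, an adenylate cyclase, fell to 87.2 ± 29.1 CPM in AAA mice, against 203 ± 43.3 CPM in control mice (SD, n = 3 each), or by -1.24 ± 0.22 (SE) on the log2 scale, with an adjusted p of 0.000424 (edgeR). Of the opposing vasoconstrictor and calcium sensitisation genes, 20 of 34 could be tested, 3 were lower, none was higher, and the median was -0.22. Mylk, the myosin light chain kinase, was 447 ± 7.02 CPM in AAA mice and 744 ± 49.1 CPM in control mice. Rgs5, a regulator of G protein signalling in mural cells, was 385 ± 68.7 CPM in AAA mice and 767 ± 186 CPM in control mice. Ppp1r12a, the targeting subunit of myosin phosphatase, was 163 ± 13.0 CPM in AAA mice and 313 ± 44.9 CPM in control mice (SD, n = 3 each).

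These differences stood beside a change of cell type markers. Of the 9 contractile genes 8 were lower in AAA mice, Des being the exception (log2 fold change -0.09), with a list median of -0.73. Examples were Acta2 (-0.77), Myl9 (-0.73), Tagln (-0.63) and Tpm2 (-0.63). Of 14 macrophage genes 11 were higher, led in count by Ctsd (0.82), Ctsb (0.68), Lyz2 (0.98) and Gpnmb (1.07). Of 9 collagen fibroblast genes 5 were higher, among them Col3a1 (0.48), Col1a2 (0.50), Col1a1 (0.68) and Fbln1 (0.73). Of 14 endothelial genes none passed, the most counted being Pecam1 (-0.29) and Egfl7 (0.51), and of 8 adipocyte genes none passed, the most counted being Cfd (0.07) and Fabp4 (-0.15). Of 4 hemoglobin genes Hba-a2 (-0.89), Hbb-bs (-1.44) and Hbb-bt (-1.46) were lower. The part of these markers in the values of the pathway genes was not tested.

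**Figure D5:**
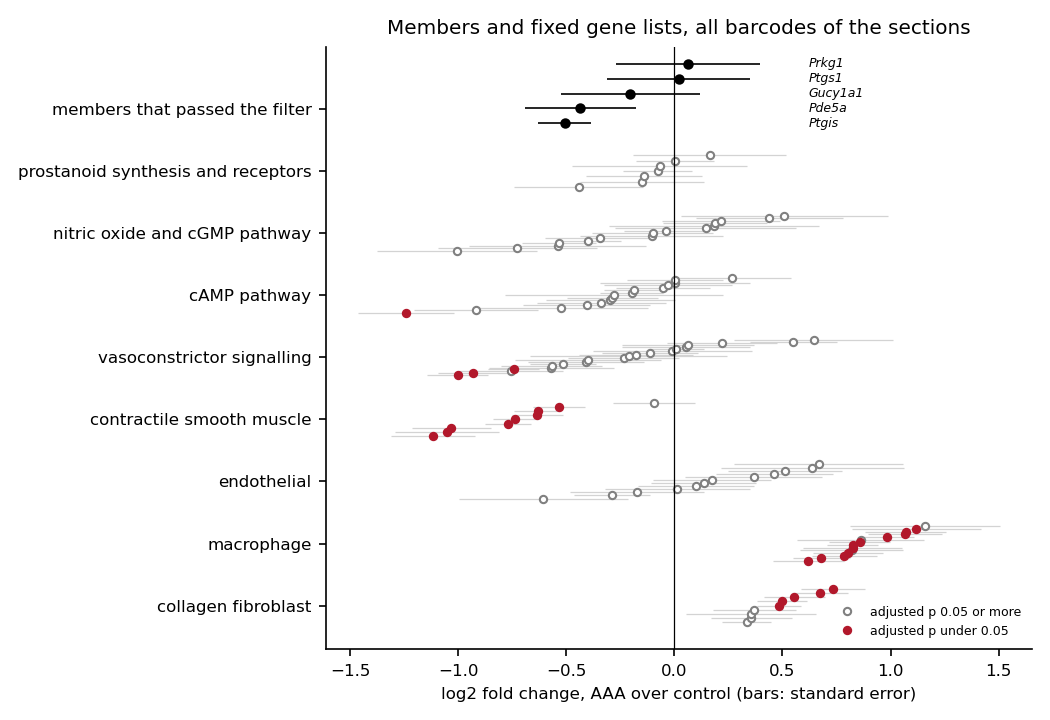
Log2 fold change of AAA over control with its standard error, over all barcodes of the sections, for the 5 members that passed the low-count filter (top, black) and for the genes of the other lists (red, adjusted p under 0.05 by edgeR). The vasodilator lists hold 1 gene past the threshold, Adcy5, while 8 of 9 contractile genes are lower and 11 of 14 macrophage genes higher in AAA mice.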

How the data were processed

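Per the labels, reads had been aligned and counted by the authors with STARsolo (version 2.7.5c), and a matrix of UMI counts per gene and spatial barcode was deposited. Its first count field was read as exonic counts and its second as counts over whole genes, from the values. Genes starting with mt or Gm (8551) were left out, as in the study. Of 9837644 barcodes, 4270217 fell into the 20 sections. The files do not name the section of a barcode, so sections were placed by fitting the published outlines along lane 2 (38 edges, residual SD 79.4 µm; 356 µm with the order reversed), and condition and mouse follow the outline names. Lane 1 entered no comparison.

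Counts were summed per mouse and tested with edgeR 4.0.16 (quasi-likelihood test, TMM, low-count filter, Benjamini-Hochberg over all genes tested); standard errors were derived from the F statistic. CPM in the text are counts scaled to a total of 1000000 per mouse, section or class, without TMM. Alternatives included DESeq2 1.42.0, library size, no filter, other hexagon minima, whole-gene counts, the embedded pair as a block and leaving out each mouse. The scripts were tested on simulated data. Members and lists were chosen with earlier results of these data known. Named were all members, the called genes of each list (up to 4 each way by count, or the 2 most counted) and the 5 genes most like Ptgis. Mylk, Rgs5, Ppp1r12a and Adcy5 fall under this rule. Added after the values were seen were Des, Acta2 by depth and in hexagons, and the genes lower beside Ptgis in smooth muscle hexagons. Gene positions are from GENCODE M21.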

Additional observations from a re-analysis of the deposited data

Results flagged for a closer look

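Prkg1 was counted 437 times among the 4077414 exonic UMIs of lane 1, an area of the array outside the sections of the comparisons, which is 107 CPM (95% exact binomial interval 97.4 to 118). This lies above the control mice, whose values were 35.5 to 57.1 CPM. Ptgis was at 24.3 CPM in lane 1, against 653 to 924 CPM in control mice.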

How the results depend on the processing

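Ptgis was lower in AAA mice under all 14 alternatives over section barcodes (log2 fold change -1.42 to -0.37), but was no longer past the threshold without the low-count filter (-0.39), with whole-gene counts (-0.37), without control mouse 1 (-0.41) or without control mouse 3 (-0.44); leaving out each mouse gave -0.63 to -0.41. Hexagons with 75 or more genes gave -1.42. Calls of Ptgis are listed as a description of the fits, since Ptgis was picked with earlier results of these data known. In smooth muscle hexagons it was lower under all 15 alternatives that kept it (-1.60 to -0.62), and lost the call with DESeq2 (-1.35), without the filter (-0.62, where the median of all genes moved to 0.99), with whole-gene counts (-0.97) and with mt and Gm genes kept (-1.24); leaving out each mouse gave -1.60 to -1.01. At 5 contractile UMIs or a 4% contractile share it was below the filter. Its ratio of smooth muscle to other hexagons was 0.80 and lost the call at a 4% share, and 0.90 to 1.26 with a mouse left out. Near Gpnmb Ptgis passed in none of the 5 alternatives that tested it (-0.72 to -0.01); at 30 µm and without AAA mouse 3 it was below the filter.

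Genes called over section barcodes numbered 146, against 82 with DESeq2, 79 in hexagons with 75 or more genes and 68 to 159 with a mouse left out (85 without control mouse 1, 68 without control mouse 3). In smooth muscle hexagons 9 were called, against 4 with DESeq2, 0 without the filter (355 at an unadjusted p under 0.05), 0 with whole-gene counts (52 unadjusted), 21 at 25 genes, 28 at 2, 1 at 5 contractile UMIs, 3 at a 4% share and 0 to 11 with a mouse left out (0 without control mouse 1, with 19 unadjusted). Between smooth muscle and other hexagons 35 were called, against 55 at 50 and 73 at 25 genes, 20 at 5 contractile UMIs, 9 at a 4% share, 21 with DESeq2 and 17 to 36 with a mouse left out. Near Gpnmb 1 was called, against 2 at 30 µm, 2 with DESeq2 and 0 to 3 with a mouse left out. With the embedded pair as a replicate block, 196 genes were called over section barcodes and Ptgis was at -0.51, and 12 genes and -1.35 in smooth muscle hexagons; no call of Ptgis changed. Deviations of paired mice correlated at 0.0348, 0.0211 and 0.0508, each AAA mouse correlating best with the control mouse of its block. Depth limits Ptgir, Gucy1b1 and Nos3 to a few UMIs in each control mouse.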
